A study of Mus musculus with 5 samples.

Results

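Myofibroblasts that carry Acta2 and Tagln were described here in the single-cell RNA sequencing libraries made from tumors of doxorubicin (DOX) treated mice. Members were chosen by measured values: a cell needed a unique molecular identifier (UMI, a count of one captured RNA molecule) of at least 3 of the 6 fibroblast genes Col1a1, Col1a2, Col3a1, Dcn, Lum and Pdgfra, at least 3 UMIs each of Acta2 and Tagln, and none of Ptprc or Epcam. There were 148 members, 85 from sensitive and 63 from resistant tumors, among 1383 cells of the fibroblast gate, 6810 kept cells of both libraries and 11119 barcodes of the series. The 1235 fibroblast gate cells that were not members are called other fibroblasts.

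The 4T1 mouse mammary cancer line, carrying the Thy1.1 marker, was grown in BALB/c mice, in the mammary fat pad. The labels give the mice as 12 weeks old (the methods give a younger age at injection of the cells). Mice received 3 intravenous doses of DOX at 5 mg/kg, 3 days apart, and tumors were labelled sensitive or resistant by their response. Members came from the 2 T cell libraries, 1 of sensitive and 1 of resistant tumors, each a pool of 3 tumors, in which other immune cells and the Thy1.1 cancer cells had been depleted with magnetic beads. The members are therefore cells that passed a T cell enrichment, and how far the beads removed fibroblasts was not measured. The series also held 3 whole-tumor libraries, labelled control (saline), sensitive and resistant. Each group had 1 library, so no difference between sensitive and resistant tumors has a replicate check, no test was possible, and brackets give 95% intervals that cover counting error only.

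Myofibroblasts are fibroblasts that assemble a contractile apparatus of smooth muscle actin (Acta2) and its binding partners such as transgelin (Tagln), and they lay down and stiffen extracellular matrix. They arise in wounds and in tumors, where transforming growth factor beta (TGF-beta) and mechanical tension are the best known triggers. Tension and free actin act through serum response factor and its cofactors, which bind a DNA element called the CArG box (CC, then 6 bases of A or T, then GG) in many genes of the actin apparatus.

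Promoter stretches are shown because these 5 genes encode parts of that apparatus, and the exact box is marked where it was present. They are from RefSeq (GRCm38.p6), 100 bases each, 5′ to 3′ on the strand of the gene, with the CArG box in capitals. The windows lay at chr19:34255374-34255473 (Acta2, minus strand), chr2:156775258-156775357 (Myl9, plus), chr10:79988499-79988598 (Cnn2, plus), chr14:20929148-20929247 (Vcl, plus) and chr11:120348531-120348630 (Actg1, minus).
Acta2: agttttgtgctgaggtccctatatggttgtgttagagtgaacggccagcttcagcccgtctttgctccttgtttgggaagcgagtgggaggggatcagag
Myl9: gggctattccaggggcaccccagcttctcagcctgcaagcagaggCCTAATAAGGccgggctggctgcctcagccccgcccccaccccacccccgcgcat
Cnn2: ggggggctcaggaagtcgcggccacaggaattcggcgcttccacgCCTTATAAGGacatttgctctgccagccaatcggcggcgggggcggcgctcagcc
Vcl: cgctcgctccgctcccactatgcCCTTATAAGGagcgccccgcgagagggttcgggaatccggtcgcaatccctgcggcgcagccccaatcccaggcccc
Actg1: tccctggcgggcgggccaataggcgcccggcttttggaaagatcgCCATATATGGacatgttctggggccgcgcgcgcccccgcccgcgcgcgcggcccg
The box began 161 bases upstream of the start in Myl9, 56 in Cnn2, 227 in Vcl and 90 in Actg1. In Acta2 these exact letters did not occur in the 300 bases searched. Boxes that depart from the letters in single bases were not searched, so the absence says nothing about such elements within the shown stretch or elsewhere. Of 33 actomyosin and focal adhesion genes, 29 matched the table with 36 promoters, and 5 of these (13.9%) held a box, beside 535 of 32851 (1.63%) of all promoters. The motif reads the same on both strands, and a match is a description of letters, not of binding. Tagln, Cnn1 and Actg2 had no entry.

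Acta2, on chromosome 19 (34241090 to 34255590, minus strand, GRCm38), and Tagln, on chromosome 9 (45929619 to 45936058, minus strand), chose the members, so their values are given as a description. Acta2 ranged from 3 to 812 UMIs per sensitive member with a median of 29, and from 3 to 1190 with a median of 29 per resistant member. Tagln ranged from 3 to 933 (median 45) in sensitive and from 3 to 1126 (median 42) in resistant members. Just inside the threshold, 5 members of each library had exactly 3 UMIs of Acta2 and 1 of each had exactly 3 of Tagln. Just outside, 56 sensitive and 25 resistant other fibroblasts had 3 or more UMIs of only 1 gene of the pair. Most other fibroblasts lay far from the limit, with no UMI of either gene in 576 of 724 and 430 of 511 cells.

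**Figure D1:**
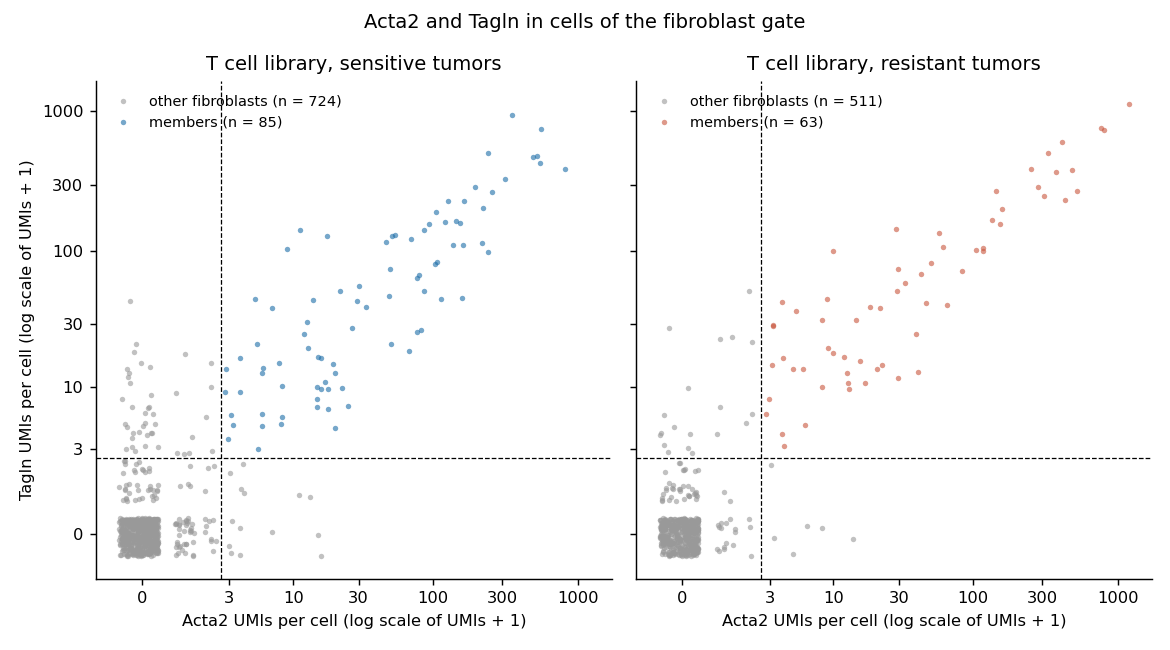
UMIs of Acta2 (x axis) and Tagln (y axis) per fibroblast gate cell in each T cell library, both on a log scale of UMIs + 1 with points shifted at random by up to 0.3 UMI. Colored points are the 85 and 63 members, gray points the other fibroblasts, and dashed lines mark the limit of 3 UMIs. Members spread over more than 2 orders of magnitude in both genes, while 576 and 430 other fibroblasts sit at 0 for both.

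The markers of the label that the rule did not use, Timp1 and Bgn, are described here. They were chosen with earlier results of these data known, so they are no independent check of the label. Timp1, the secreted inhibitor of metalloproteases (chromosome X, 20870166 to 20874735), was at 9327 CPM (UMIs of the gene per 1000000 UMIs summed over the cells) in sensitive members and 8978 in resistant members, against 2735 and 1594 in other fibroblasts. Bgn, the matrix proteoglycan biglycan, was at 4858 and 4145 CPM in members and 3032 and 2316 in other fibroblasts. Both marker genes were thus higher in members of both libraries, by 3.41 [3.35, 3.47] and 5.63 [5.50, 5.76] times for Timp1 and by 1.60 [1.57, 1.64] and 1.79 [1.74, 1.84] times for Bgn. Bgn was no higher in resistant members than in the 12 resistant non-members without a Pi16 UMI (0.993 [0.917, 1.08]).

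Members were deep cells. Sensitive members had a median of 29067 UMIs and resistant members of 33796, against 12562 and 12839 for other fibroblasts and 4281 and 4965 for T cells. A cell with more UMIs reaches 3 UMIs of a gene more easily, so levels are given as CPM and shares of cells also at equal depth, from a random draw of 5000 UMIs per cell. Too shallow for that draw were 6 sensitive members and 1 resistant member. Members' mitochondrial share was low, with medians of 1.56% and 2.18%. Fibroblast RNA was also seen in T cells: a Col1a1 UMI in 7.78% of sensitive and 6.83% of resistant T cells, and an Acta2 UMI in 1.67% and 1.21%. Acta2 and Tagln both at the threshold of 3 were seen in 4 of 1851 and 9 of 1815 T cells. Whether this was free RNA or came from doublets was not tested.

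Markers of most other cell types were low in members. T cell markers summed to 13.2 and 16.8 CPM in members against 11319 and 10348 in T cells, and Nkg7 was at 0 in members of both libraries. Endothelial markers summed to 21.0 and 7.52 CPM with Cdh5 at 0, and of 11 epithelial markers 6 were at 0 in both (Epcam, which the rule excluded, Krt14, Krt5, Cdh1, Cldn4 and Cldn7). Epithelial markers summed to 66.7 and 11.9 CPM in members against 31.8 and 18.6 in other fibroblasts, a UMI of any was seen in 23 of 85 and 13 of 63 members, and the keratin gene Krt19, 1 of 3 tested, was higher in both libraries (2.14 and 2.34 times), but at 0.271 times against the sensitive fibroblasts without a Pi16 UMI. Macrophage markers summed to 213 and 42.5 CPM, and 1 sensitive member held 88.1% of the sensitive sum. Adipocyte markers were at 0. Smooth muscle markers, which share the contractile program, summed to 387 and 249 CPM in members against 57.4 and 33.5 in other fibroblasts. At least 2 of them were seen in 52.9% and 42.9% of members as sequenced. After thinning the shares were 19.0% and 11.3% of members and 2.14% and 0.216% of other fibroblasts. Pericyte markers summed to 315 and 148 CPM in members against 138 and 184. At least 2 of them were seen in 30.6% and 30.2% of members as sequenced. After thinning the shares were 10.1% and 3.23% of members and 5.76% and 10.6% of other fibroblasts. Leaving out cells with 2 pericyte or 2 smooth muscle markers left 32 of 85 and 30 of 63 members. A UMI of any of 9 markers used for doublets was seen in 27.1% and 27.0% of members as sequenced, and after thinning in 15.2% and 6.45% of members and 7.07% and 12.1% of other fibroblasts. The part of these cells in the results below was not tested, and values without them are given where they change a result.

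Against other fibroblasts of the same library, 360 of 9838 genes (3.66%) were at least 2-fold higher in members of both libraries and 618 (6.28%) were at most 0.5 times as high. The genes tested had at least 100 UMIs over the fibroblast gate, and the rule's own genes were left out. Over all tested genes the ratio had a median of 0.958 among sensitive and 0.957 among resistant cells. Besides contractile and cell cycle genes, the 15 genes with the highest ratios held Prr9, Stra6, a retinol transporter, and the hormone gene Fgf21. The 10 lowest included Sfrp4, Clec3b, Bmp3, a growth factor of the bone morphogenetic protein family, and Ntrk2, a neurotrophin receptor.

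The contractile apparatus stood out in members. Of 30 tested actomyosin and focal adhesion genes, 19 were at least 2-fold higher in both libraries and none was 2-fold lower, with median ratios of 2.50 and 2.83. Cnn1, which encodes the smooth muscle protein calponin (chromosome 9, 22099216 to 22109630), had 175 and 187 UMIs in members and 2 and 0 in other fibroblasts, which gave 313 [85.4, 2606] times in the sensitive library and at least 204-fold higher in the resistant library against 3 counts. Actg2, the enteric smooth muscle actin, was at 130 and 83.6 CPM against 0.997 and 0.270, or 130 [70.0, 274] and 309 [84.5, 2574] times. Each of these 2 genes was confined to a minority of members, with a Cnn1 UMI in 21 of 85 and 16 of 63 cells and an Actg2 UMI in 21 and 11. The regulatory light chain of myosin, Myl9, whose promoter held a box, was more widespread, with a UMI in 64 and 50 members. It was at 285 and 234 CPM against 13.6 and 10.9, or 21.0 [17.5, 25.4] and 21.3 [16.9, 27.3] times.

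Tropomyosins, which lie along the actin filament, followed the same pattern. Tpm2 was at 713 and 780 CPM in members and 51.9 and 32.8 in other fibroblasts (13.7 [12.5, 15.1] and 23.8 [20.8, 27.3] times), and Tpm1 was 5.38 [5.10, 5.67] and 9.03 [8.43, 9.67] times as high. The broadly expressed cytoskeletal genes differed less. Actb was 2.41 [2.36, 2.45] and 2.46 [2.41, 2.51] times as high, Actg1 3.05 [2.99, 3.12] and 2.94 [2.87, 3.02] times, and the caldesmon gene Cald1 2.54 [2.44, 2.65] and 2.88 [2.75, 3.01] times. Of the other genes shown with a promoter box, Cnn2, a second calponin, was 5.05 and 6.90 times and Vcl, which links actin to adhesions, 2.77 and 3.05 times as high. Smooth muscle markers tested numbered 6, and 4 of them (Actg2, Cnn1, Des and Mylk) were higher in both libraries. The intermediate filament gene Des was 11.1 [8.31, 15.1] times as high in sensitive members, while in resistant members it had 9 UMIs and a ratio of 2.10 [0.804, 5.22]. Of 13 genes for serum response factor, its cofactors and YAP targets, 3 were higher (Ccn2, Ankrd1 and Ajuba) and none lower. Ccn2, a matricellular growth factor induced by TGF-beta and tension, was at 1128 and 1023 CPM against 122 and 133, or 9.24 [8.65, 9.88] and 7.66 [7.11, 8.26] times.

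**Figure D2:**
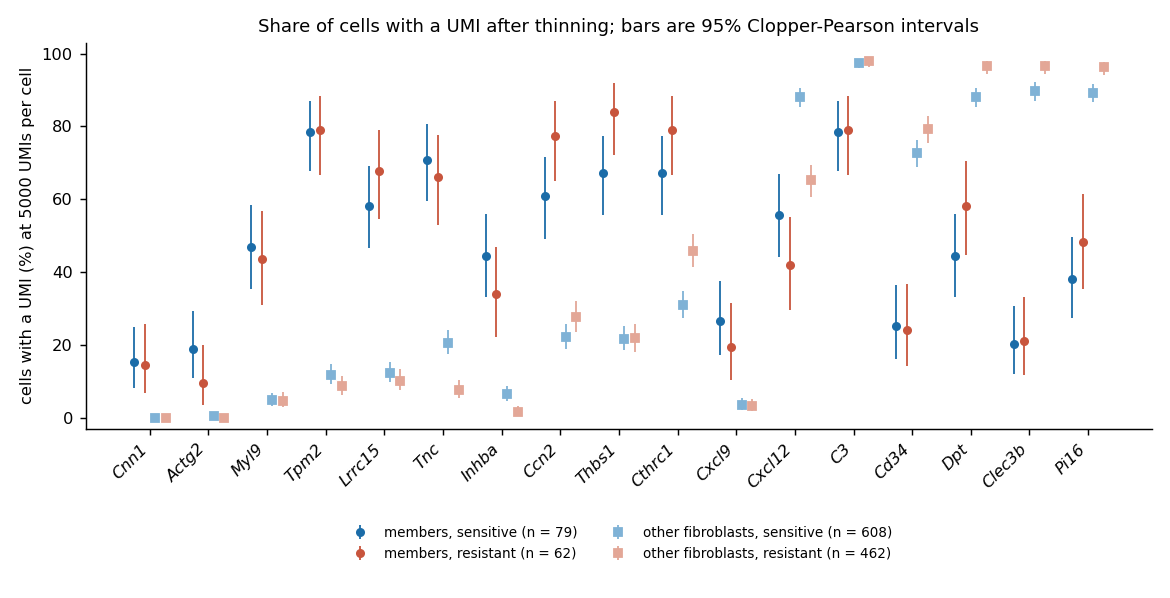
Share of cells with a UMI of each gene after thinning to 5000 UMIs per cell (y axis, percent), in members (circles, n = 79 sensitive and 62 resistant) and other fibroblasts (squares, n = 608 and 462), with 95% Clopper-Pearson intervals as bars. Cnn1 was seen in 15.2% and 14.5% of members and in no other fibroblast, and Pi16 in 38.0% and 48.4% of members against 89.3% and 96.3%.

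Thinned shares gave the same order as the CPM for these genes. A Myl9 UMI was seen in 46.8% [35.5, 58.4] of sensitive and 43.5% [31.0, 56.7] of resistant members, in 4.77% and 4.76% of other fibroblasts and in 0.411% and 0.222% of T cells. For Cnn1 the shares were 15.2% and 14.5% of members, and 0 of 608 and 0 of 462 other fibroblasts, which leaves room for up to 0.605% and 0.795% with a UMI. In T cells a Cnn1 UMI was seen in 0.411% and 0.333%. T cells, which should lack these genes, thus held them in fewer cells than members did at equal depth.

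TGF-beta family genes were split by role. Of 8 tested ligands, 4 were higher in both libraries and 2 lower. Inhba, the activin A subunit, was at 682 and 370 CPM in members against 117 and 14.5 in other fibroblasts, or 5.83 [5.42, 6.27] and 25.6 [20.9, 31.6] times. Tgfb1 was 4.43 [3.80, 5.17] and 5.11 [4.28, 6.10] times as high, Tgfb2 3.18 and 3.68 times and Tgfb3 2.27 and 5.83 times. The distant family members Gdf10 and Gdf15 were lower, at 0.110 and 0.212 times and at 0.0646 and 0.176 times. Of 12 genes of latency and activation, 2 were higher and 2 lower. Thbs1, whose product thrombospondin releases TGF-beta from its latent form, was 7.23 [6.73, 7.76] and 7.74 [7.15, 8.38] times as high, and Ltbp2, a matrix relative of the latency proteins, 3.98 and 19.5 times. Ltbp1 and Ltbp4, which bind latent TGF-beta to matrix, were at 0.204 and 0.253 and at 0.153 and 0.271 times.

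None of 13 receptor and Smad genes was 2-fold higher in members of both libraries, and 2 were lower. Tgfbr2, the receptor that binds the ligand first, was at 243 and 258 CPM in members against 725 and 830, and the coreceptor gene Tgfbr3 at 64.6 and 46.9 CPM against 275 and 272. Of 14 tested target genes, 6 were higher in both libraries and none lower. Lrrc15, a surface protein known from TGF-beta driven cancer-associated fibroblasts, was 7.56 [6.75, 8.49] and 7.97 [6.93, 9.20] times as high, and Cthrc1, a secreted collagen regulator, 3.48 and 3.13 times. At equal depth a Lrrc15 UMI was seen in 58.2% [46.6, 69.2] and 67.7% [54.7, 79.1] of members against 12.3% and 10.2% of other fibroblasts.

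Most other fibroblasts had a Pi16 UMI (655 of 724 and 499 of 511), a marker of the adventitial fibroblasts that line vessels. Setting members against the few Pi16-negative non-members instead (69 sensitive and only 12 resistant cells) separated the groups above. Single cells weigh in the resistant comparison: 1 of the 12 cells held 414 Spp1, 115 Cxcl9 and 24 Tagln UMIs, and another held 14 Acta2 UMIs. Some contractile genes were still higher, with Cnn1 by 64.0 [11.3, 2541] times in the sensitive library and at least 4.27-fold in the resistant one, Tpm2 by 5.37 [4.51, 6.44] and 3.78 [2.67, 5.54] times and Myl9 by 13.9 [9.02, 22.6] and 2.13 [1.32, 3.68] times, whereas in the resistant library Des (0.0617 times) and Mylk (0.343 times) turned to lower. Ccn2 (5.61 [4.87, 6.49] and 5.28 [3.69, 7.85] times) and Timp1 (3.16 [3.05, 3.29] and 6.66 [5.81, 7.67] times) were higher too. Ligand genes were not uniformly so. Inhba was at 0.730 [0.675, 0.790] times in the sensitive and 1.79 [1.26, 2.64] times in the resistant library, and Tgfb1 at 1.58 [1.25, 2.01] and 0.705 [0.490, 1.05] times, while Tgfb2 and Tgfb3 were at 0.589 and 0.690 times in the resistant library. The surface protein gene Lrrc15 was at 1.91 [1.63, 2.26] and 1.87 [1.26, 2.91] times. Of the 360 genes higher in members of both libraries, 61 were also 2-fold higher against the Pi16-negative cells, and of the 618 lower, 39 were also lower, with fewer genes (6029) holding enough UMIs to be counted.

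**Figure D3:**
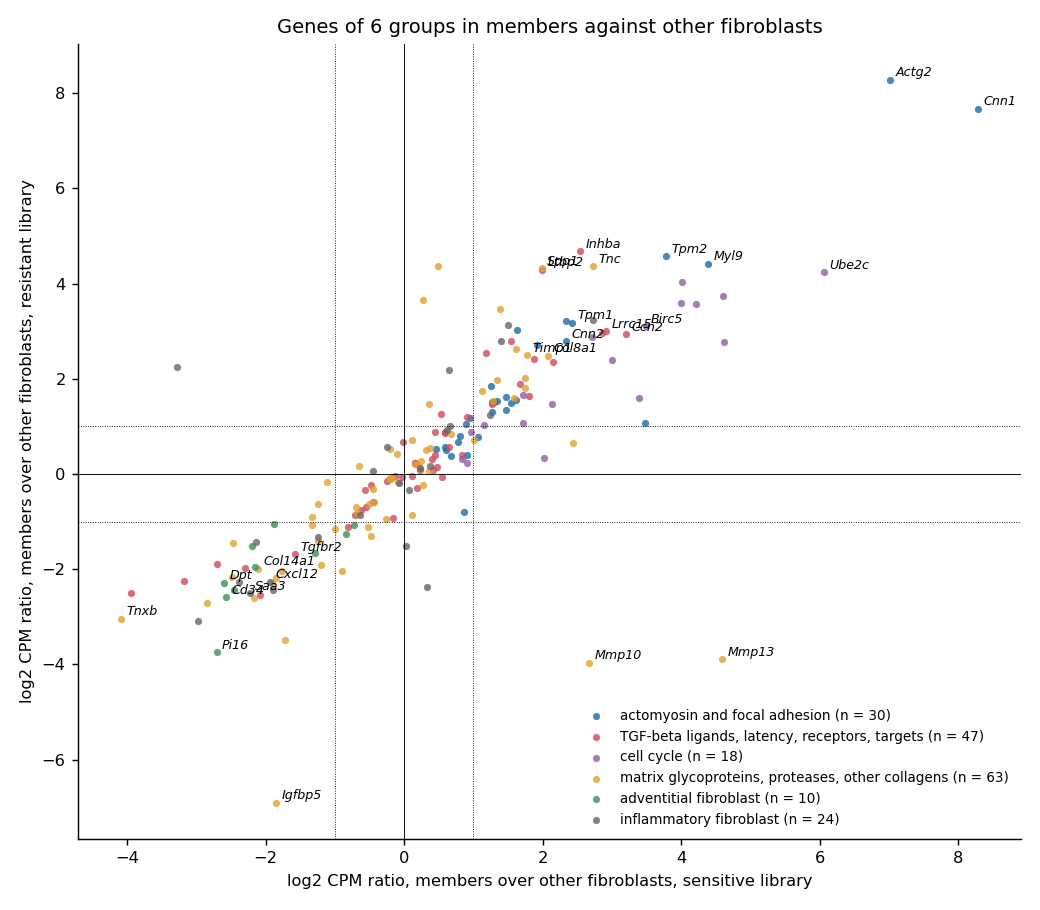
Log2 CPM ratio of members over other fibroblasts in the sensitive (x axis) and resistant (y axis) library for tested genes of 6 groups, each point a gene. Dotted lines mark 2-fold. Contractile and cell cycle genes lie at the upper right, with Cnn1 at the far end (its resistant value is a lower bound), and adventitial genes such as Pi16, at 0.153 and 0.0747 times, at the lower left.

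Collagen genes split by type. Of 6 tested fibrillar collagens, which form the main fibers (Col1a1, Col1a2 and Col3a1 were used by the rule and not counted), none was 2-fold higher or lower in both libraries, with medians of 1.32 and 1.40. Of 12 other collagens, 4 were higher and 2 lower. Col12a1, which decorates collagen fibers, was at 1631 and 1687 CPM in members against 748 and 500 (2.18 [2.10, 2.26] and 3.37 [3.22, 3.53] times), and Col8a1, a short-chain collagen of vessel walls and scars, was 4.22 [3.86, 4.61] and 5.59 [5.18, 6.03] times as high. Col15a1 (2.52 and 3.91 times) and Col7a1 (3.34 and 4.06 times) were the other higher genes, but Col7a1 was at 0.420 and 0.0966 times against Pi16-negative non-members. Col14a1 was lower, at 207 and 300 CPM against 894 and 1198, though at 1.11 times against the Pi16-negative cells in the sensitive library. Of 10 basement membrane genes none was higher and 5 were lower, with medians of 0.481 and 0.487, among them Nid1 (0.470 and 0.384 times), the collagen IV gene Col4a1 (0.463 and 0.471 times) and the laminins Lama4 (0.440 and 0.460 times) and Lama2 (0.382 and 0.410 times). Against Pi16-negative non-members Lama2 was at 1.04 and 1.62 times, and Lama4 at 1.18 times in the resistant library.

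Of 32 matrix glycoproteins and proteoglycans, 6 were higher and 8 lower. Tnc, encoding tenascin C of wounds and tumor stroma, was at 1685 and 1443 CPM in members against 255 and 70.5 (6.60 [6.29, 6.93] and 20.5 [18.6, 22.5] times). It did not differ from the Pi16-negative non-members in the sensitive library (1.04 [0.982, 1.10] times). Spp1, the secreted phosphoprotein osteopontin, was at 5550 and 1579 CPM in members against 1401 and 78.9, but T cells held it too, in 36.8% and 47.6% of cells at equal depth against 49.4% and 29.0% of members, so its shares are not read as expression. Spp1 was at 0.879 and 0.527 times against Pi16-negative non-members, of which 1 resistant cell held 414 Spp1 UMIs and the next highest 44. Lower genes included Igfbp4, a binding protein of insulin-like growth factors (0.277 and 0.219 times), and the fibulin family genes Fbln1 (0.434 and 0.264 times) and Efemp1 (0.139 and 0.152 times). Of 18 genes of collagen maturation, 1 was higher, the lysyl oxidase relative Loxl3 (2.90 and 4.91 times), and 1 lower, Pcolce2, an enhancer of procollagen cleavage (0.381 and 0.328 times, but 5.58 times against the resistant Pi16-negative cells).

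Matrix proteases and their inhibitors numbered 26, of which 5 were higher and 5 lower. The higher ones included the inhibitor genes Timp1 (above) and Timp3, at 1825 and 2800 CPM against 597 and 451 (3.06 [2.95, 3.18] and 6.21 [5.96, 6.48] times), and Plaur, the urokinase receptor gene (3.35 and 3.49 times). Without cells holding 2 pericyte or 2 smooth muscle markers, Timp3 was at 0.937 times in the sensitive library. Mmp2, gelatinase A, was lower at 850 and 679 CPM against 2010 and 1807, and the inhibitor gene Timp2 at 421 and 423 CPM against 843 and 939.

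Inflammatory genes were split, with 4 of 25 higher and 7 lower. The cytokines of the interleukin 6 family Lif (6.61 [4.85, 9.08] and 9.41 [6.73, 13.4] times) and Il11 (2.83 [1.94, 4.12] and 8.69 [5.61, 13.8] times), the prostaglandin synthase gene Ptgs2 (2.63 and 6.93 times) and the chemokine gene Cxcl16 (2.37 and 2.37 times) were higher. Against Pi16-negative non-members Cxcl16 was at 0.990 and 0.693 times, and in the sensitive library Il11 was at 0.451 and Ptgs2 at 0.550 times. The acute phase gene Saa3 (0.213 and 0.176 times), the complement genes C3 (0.268 and 0.184 times) and C4b (0.192 and 0.207 times), and Cxcl12, the ligand of CXCR4 (0.262 and 0.208 times), were lower, although Saa3 was at 2.47 times against the resistant Pi16-negative cells. Cxcl12 was at 466 and 168 CPM in members against 1778 and 810. Of 12 genes for the interleukin 17 receptor and its targets, none was higher and 4 were lower (Cxcl5, Il17ra, Lcn2 and S100a8). Of 24 interferon response genes, 4 were higher and 1 lower, with Isg15 at 2.51 and 2.19 times and the T cell attracting chemokine Cxcl9 at 14.0 [12.7, 15.5] and 8.05 [7.08, 9.18] times, but at 0.469 times against the resistant Pi16-negative cells. Among those 12 cells, 1 held 115 Cxcl9 UMIs and the next highest 4. Of 13 antigen presentation genes none was higher in both libraries and none lower, and of 10 checkpoint ligand genes 2 were higher (Lgals1, galectin 1, at 2.34 and 2.46 times, and Cd80 at 2.89 and 2.34 times) and 1 lower (Entpd1).

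Of 29 growth factors and receptors, 3 were higher and 7 lower. The angiogenic factor Vegfa (2.44 and 3.02 times), the platelet-derived growth factor gene Pdgfa (4.40 and 3.98 times) and the noncanonical Wnt ligand Wnt5a (3.86 and 5.19 times) were higher, while the secreted Wnt modulators Sfrp2 (0.267 and 0.201 times) and Sfrp4 (0.0229 [0.0153, 0.0330] and 0.0153 [0.00981, 0.0228] times) and the lymphangiogenic factor Vegfd (0.188 and 0.212 times) were lower. Wnt5a was below the Pi16-negative non-members in both libraries, at 0.624 [0.521, 0.750] and 0.283 [0.181, 0.457] times, as were Vegfa in the sensitive (0.686 times) and Pdgfa in the resistant library (0.469 times). Of 18 genes of hypoxia and glycolysis, 8 were higher and 1, the vasoactive peptide gene Adm, lower, with medians of 2.15 and 2.24. Pgk1 was 3.21 and 2.96 times, Pkm 2.46 and 2.42 times and Gapdh 2.82 and 2.42 times as high as in other fibroblasts. Against Pi16-negative non-members Pgk1 was at 1.06 [0.974, 1.16] and 0.958 [0.767, 1.21] times, Pkm at 0.933 and 0.891 times, and Gapdh at 0.764 times in the resistant library.

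Cell cycle genes had the highest median of the lists with at least 10 tested genes, with 14 of 18 higher, none lower and medians of 7.28 and 4.22. Ube2c, encoding a ubiquitin-conjugating enzyme of mitosis, was at 66.7 [39.1, 124] and 18.8 [13.1, 27.8] times, Mki67, encoding the proliferation antigen Ki-67, at 16.2 [8.81, 32.3] and 16.4 [8.21, 36.2] times, and Top2a, the topoisomerase that DOX poisons, at 24.6 [14.5, 44.6] and 6.83 [4.76, 9.93] times. T cells of the same libraries were higher still in Mki67, with 79.1 and 97.6 CPM against 21.0 and 22.1 in members. The UMIs came from few cells, as described below. Of 8 DOX targets and transporters Top2a was the higher one and none was lower.

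Calls in the stress lists are to be read beside the 3.66% of all tested genes called higher and 6.28% called lower. Of 20 immediate early genes, 1 was higher (Egr2, but at 0.870 times against the resistant Pi16-negative cells) and 4 lower, with Klf4 at 0.207 and 0.188 times and Atf3 at 0.253 and 0.121 times. Of 10 heat shock genes 2 were lower, Hspa1a (0.464 and 0.431 times) and Hspa1b, although against Pi16-negative cells Hspa1b was at 1.20 and 1.54 times and Hspa1a at 1.29 times in the resistant library. Of 14 oxidative stress genes 2 were lower, the metallothioneins Mt1 (0.421 and 0.308 times) and Mt2 (0.417 and 0.311 times). Of 19 p53 targets 1 was higher (Plk2, 2.79 and 2.78 times) and 1 lower (Gdf15), which is near those shares. Cdkn1a, the p53-induced cell cycle inhibitor p21, named here after its values had been seen, was at 501 and 838 CPM in members and 703 and 900 in other fibroblasts. Of 12 senescence genes 4 were higher, among them the growth factor binding protein gene Igfbp3 (2.61 and 11.0 times) and the cell cycle inhibitors Cdkn2b (2.91 and 6.96 times) and Cdkn2a (2.23 and 2.10 times), and 2 were lower. Igfbp3 was at 0.525 and 0.786 times against Pi16-negative non-members, and at 0.633 times in the sensitive library without cells holding 2 pericyte or 2 smooth muscle markers. In the resistant library Cdkn2a (0.0771 times) and Cdkn2b (0.999 times) were no longer higher against Pi16-negative cells.

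Adventitial fibroblast markers were lower in members than in other fibroblasts, with 8 of 10 below and none above, and medians of 0.220 and 0.288. Against Pi16-negative non-members, which lack Pi16 by choice, Dpp4 (1.65 and 5.49 times) and Sema3c (1.29 and 4.27 times) turned to higher. Pi16 was at 385 and 199 CPM in members against 2513 and 2663, Ly6c1 at 0.181 and 0.186 times and Dpt, the matrix protein dermatopontin, at 0.165 and 0.205 times. Ly6a, encoding Sca-1, differed less (0.411 and 0.317 times). The marker sum was 3811 and 3862 CPM in members, of which Ly6a made up 2169 and 2120, against 2090 and 1548 CPM in T cells and 12814 and 15432 in other fibroblasts. Among all tested genes Clec3b, encoding tetranectin, was one of the 10 lowest (0.0606 and 0.0453 times).

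The members were not uniform. By the variance of per-cell counts beyond that given by depth, the most variable genes ranked in both libraries were led by Cxcl14, Spp1, Ccl2, Timp1, Rarres2, Malat1 and Tnc. Timp1 ranged from 0 to 314 UMIs per 10000 in sensitive members with a median of 59.2, and from 3.62 to 323 with a median of 50.0 in resistant members. Almost every member carried it (84 of 85 and 63 of 63). Tnc had medians of 4.96 and 2.66 and highest values of 154 and 170. Cxcl14, a chemokine of resting stroma, ran from 0 to 211 with a median of 11.5 in sensitive and from 0 to 183 with a median of 33.1 in resistant members, and the groups overlapped over nearly the whole range. The eosinophil chemokine Ccl11 had medians of 8.50 and 4.43 and highest values of 184 and 92.2.

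**Figure D4:**
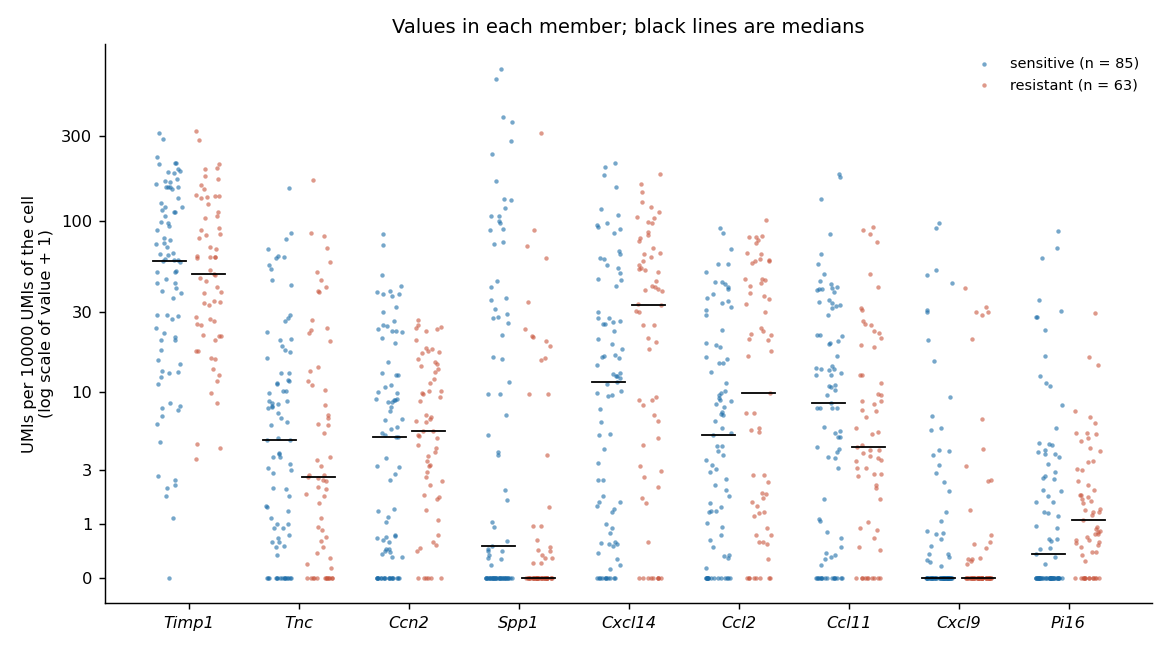
UMIs per 10000 UMIs of the cell (y axis, log scale of value + 1) for 9 genes in each of the 85 sensitive and 63 resistant members, with medians as black lines. Timp1 is high in nearly all members, whereas Spp1, Cxcl9 and Pi16 are near 0 in many and reach 716, 97.8 and 87.3 in single sensitive members.

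Members were split by single genes to describe this spread, and the splits were chosen after values had been seen. A Cnn1 or Actg2 UMI was found in 27 of 85 sensitive (31.8%) and 20 of 63 resistant (31.7%) members, and at equal depth in 24.1% and 19.4% against 0.493% and 0 of 462 of other fibroblasts. Members with it were deeper, at medians of 33521 and 48493 UMIs against 27583.5 and 27059. In CPM they were higher than the other members in Tpm1 (3.73 and 4.87 times), Tpm2 (3.01 and 3.47 times) and Myl9 (6.25 and 3.79 times). Inhba (2.67 and 5.96 times), Tnc (2.13 and 3.70 times), Ccn2 (2.49 and 2.13 times) and Tgfb1 (2.02 and 2.48 times) were higher in the same cells. So were markers of other cell types, with the macrophage genes Lyz2 at 75.1 and 4.79 times and C1qa at 106 against 0 UMIs in the sensitive library (6 against 3 in the resistant), and the pericyte gene Rgs5 at 169 against 0 sensitive UMIs. A single sensitive member held 96.2% of the UMIs of Lyz2 and 96.2% of those of C1qa, and their part in the split was not tested. Pi16 (0.312 and 0.295 times), Cd34 (0.153 and 0.0769 times) and Mmp3, the stromelysin gene (0.0446 and 0.121 times), were lower.

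A Pi16 UMI was found in 45 of 85 (52.9%) and 49 of 63 (77.8%) members, and at equal depth in 38.0% [27.3, 49.6] and 48.4% [35.5, 61.4]. T cells gave 5.07% and 6.67% at that depth. Pi16-positive members were close in depth to the others (29778 against 28639 and 33796 against 33021 UMIs). They were higher in other genes of the adventitial state, with Clec3b at 47.1 times and at least 36.1-fold, Cxcl12 at 8.27 and 9.20 times, Ccl11 at 6.78 and 7.77 times and Sfrp2 at 6.39 and 15.8 times. They were lower in Inhba (0.242 and 0.133 times), Cnn1 (0.154 and 0.117 times), Vegfa (0.345 and 0.174 times) and Pgk1 (0.478 and 0.354 times).

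Cycling members, with a UMI of at least 3 of 8 cell cycle genes, numbered 14 of 85 (16.5% [9.31, 26.1]) and 11 of 63 (17.5% [9.05, 29.1]), against 0.691% and 1.17% of other fibroblasts. At equal depth the shares were 12.7% and 11.3% of members and 0.329% and 0.649% of other fibroblasts. Sensitive cycling members were deeper (median 40877.5 against 27851 UMIs) and resistant ones were not (33796 against 34136.5). They were lower in Inhba (0.131 and 0.0874 times), Cnn1 (0.181 and 0.159 times) and Actg2 (0.0633 and 0.104 times) than other members, and higher in Mmp3 (3.17 and 3.50 times) and the acute phase gene Hp (7.46 and 8.31 times).

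A Cxcl9 UMI was found in 33 of 85 (38.8%) and 21 of 63 (33.3%) members, and at equal depth in 26.6% [17.3, 37.7] and 19.4% [10.4, 31.4] against 3.62% and 3.25% of other fibroblasts and 1.37% and 2.22% of T cells. These members were higher in interferon induced genes, with Cxcl10 at 183 and 23.0 times, Ifit3 at 16.5 and 11.1 times, Gbp2 at 3.80 and 4.49 times and the immunoproteasome subunit Psmb9 at 3.69 and 3.12 times. Cd74, the invariant chain of MHC class II, was higher in them too (10.8 and 2.76 times). The macrophage gene C1qa moved with them, with 102 UMIs in these and 4 in the other sensitive members and 5 and 4 in resistant members, and its part was not tested. A single member held 33.5% and 32.6% of all Cxcl9 UMIs of its library.

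The next comparison asked whether members differed between tumors that responded to DOX and tumors that did not. Among kept cells members made up 2.39% [1.91, 2.94] for sensitive and 1.94% [1.49, 2.47] for resistant tumors, a ratio of 1.23 [0.892, 1.70]. Among fibroblast gate cells they made up 10.5% [8.48, 12.8] and 11.0% [8.54, 13.8], a ratio of 0.957 [0.704, 1.30]. Neither share differed beyond counting error, and differences of up to these bounds would not have been detectable at this number of cells. The share of kept cells depended on the mitochondrial limit, with a ratio of 0.797 [0.568, 1.12] at 5% and 1.63 [1.18, 2.24] at 20%, and the share of fibroblast gate cells did not (0.905 and 1.02).

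Of 5290 genes with at least 100 UMIs in members, 136 (2.57%) were at least 2-fold higher in sensitive and 35 (0.662%) at least 2-fold higher in resistant members, around a median ratio of 1.04. Of the 136, 55 were also at least 2-fold higher in sensitive than in resistant other fibroblasts, and of the 35, 13 were likewise higher in resistant other fibroblasts. In 19 of the 9838 genes tested against other fibroblasts, members were 2-fold higher in 1 library and 2-fold lower in the other. Single cells carried some calls, with over 50% of the UMIs in 1 cell for 11 of the 136 genes and 1 of the 35. When members with a UMI of another cell type were left out, 60 of the 136 and 15 of the 35 calls remained. That left 62 and 46 members, and fewer genes (4087) reached 100 UMIs, of which 124 (3.03%) were called.

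Most genes of the contractile and TGF-beta groups did not differ 2-fold between the libraries. Of 29 actomyosin genes 2 (Des and Mylk) were at least 2-fold higher in sensitive members and none lower, with a median of 1.03. Des was at 17.0 times, with a UMI in 24 of 85 sensitive and 5 of 63 resistant members. Of 5 tested smooth muscle markers the same 2 were higher and none lower, with a median of 1.55. Myl9 was at 1.22 [1.09, 1.36] times, Tpm2 at 0.914 [0.857, 0.975] times and Tpm1 at 0.921 [0.877, 0.966] times. No gene of the serum response factor and YAP, ligand, latency, or receptor and Smad lists was 2-fold different. Inhba was at 1.84 times, just inside the limit, and Tgfb1 at 0.931 [0.801, 1.08] times. Of 14 target genes only Tgfbi, an adhesion protein of the matrix, was called, at 110 and 19.5 CPM (5.63 [4.09, 7.90] times), and it was 6.48 times as high in other fibroblasts as well. Lrrc15 was at 1.11 [1.00, 1.22] times and Timp1 at 1.04 [1.02, 1.06] times.

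Matrix proteases held the most uneven genes. Of 25 tested, 6 were higher in sensitive members and none lower. Mmp13, a collagenase (chromosome 9, 7272514 to 7283331), had 1431 UMIs in 7 sensitive members and none in resistant members, so it was at least 385-fold higher against 3 counts. A single cell held 49.7% of these UMIs. Mmp10, a stromelysin, had 608 UMIs in 9 members against 3 in 2 (163 [55.7, 795] times). Other fibroblasts showed little of this, at 1.07 times for Mmp13 and 1.65 times for Mmp10. Mmp3 (2.13 [1.98, 2.30] times), seen in 45 and 36 members, and the protease inhibitor Serpine2 (2.21 [1.99, 2.46] times), in 72 and 52, were spread over more cells.

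**Figure D5:**
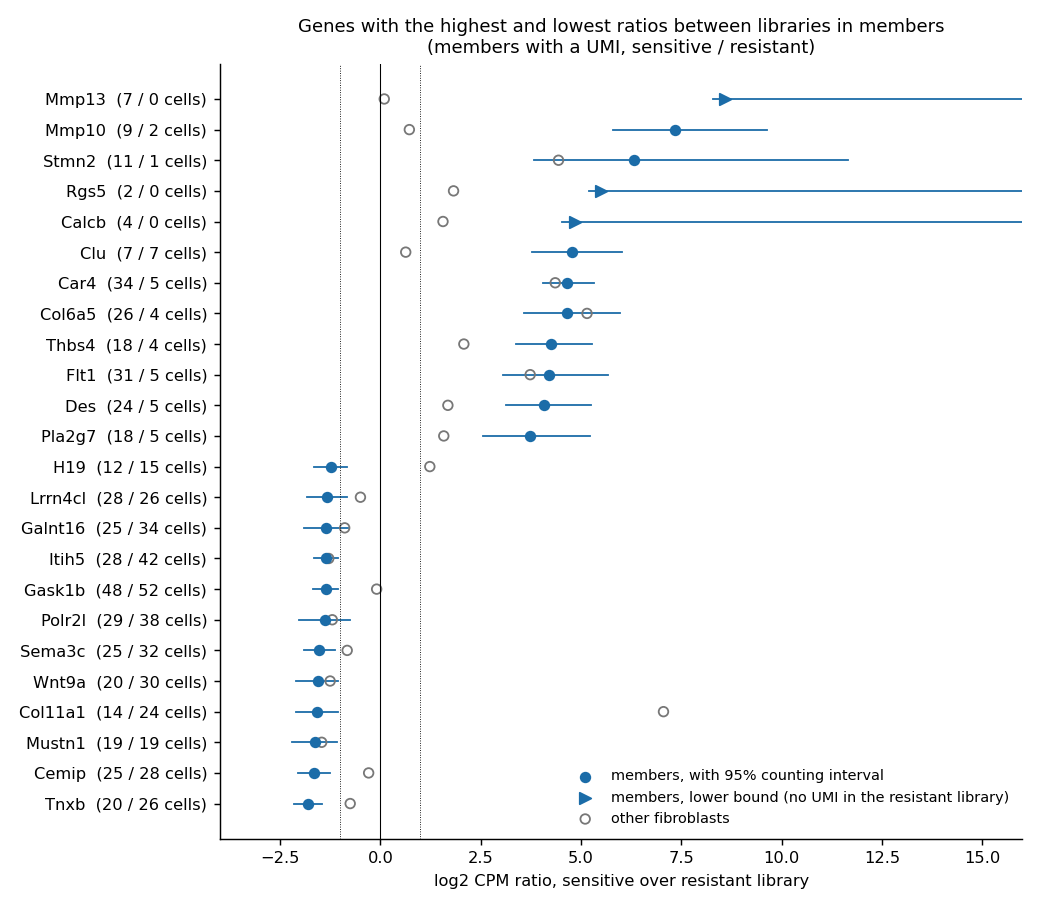
Log2 CPM ratio, sensitive over resistant, in members (filled points with 95% counting intervals; arrowheads are lower bounds where resistant members had no UMI) and in other fibroblasts (open circles) for the 12 genes with the highest and the 12 with the lowest ratio. Numbers in brackets are sensitive and resistant members with a UMI. Car4 and Col6a5, at 25.1 and 25.0 times in members, had similar ratios in other fibroblasts (20.5 and 35.5 times), whereas Mmp13 was at 1.07 times there.

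Beyond the proteases, the carbonic anhydrase gene Car4 was at 256 and 10.2 CPM, a ratio of 25.1 [16.6, 39.9], with a UMI in 34 and 5 members, and Flt1, a receptor of vascular endothelial growth factor, at 49.2 and 2.65 CPM (18.5 [8.31, 51.4] times). Both ratios were of like size in other fibroblasts, at 20.5 and 13.3 times. The microfibrillar collagen gene Col6a5 (25.0 [11.9, 62.9] times) was too, whereas Thbs4, a thrombospondin, was at 19.0 [10.4, 38.5] times in members and 4.23 times in other fibroblasts. Grem1, an antagonist of bone morphogenetic proteins, was at 230 and 17.7 CPM (13.0 [9.44, 18.4] times) in members and 16.1 times in other fibroblasts. Clu was at 27.6 [13.8, 64.6] times, with 60.9% of the sensitive UMIs in 1 cell, and at 14.3 times without its top member in each library. The pericyte gene Rgs5 (at least 45.4-fold) rested on 1 cell, with 99.4% of the sensitive UMIs.

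Inflammatory genes leaned to the sensitive library, with 7 of 22 higher, none lower and a median of 1.48. The alarmin Il33 was at 332 and 73.9 CPM (4.50 [3.81, 5.33] times), Cxcl12 at 466 and 168 CPM (2.77 [2.47, 3.11] times), Cxcl16 at 189 and 89.4 CPM (2.12 [1.80, 2.51] times) and the neutrophil chemokine Cxcl1 at 554 and 270 CPM (2.05 [1.86, 2.25] times). Other fibroblasts gave 1.55, 2.19, 2.12 and 1.74 times for these genes, and Cxcl1 reversed to 0.794 when members with 2 pericyte or 2 smooth muscle markers were left out. Cxcl5, a target of interleukin 17, was at 4.98 [3.35, 7.65] times in members and 4.75 times in other fibroblasts. Of 5 tested interleukin 17 genes 2 were higher (Cxcl1 and Cxcl5).

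Of 12 antigen presentation genes, 4 were higher in sensitive members, all of MHC class II, and the median was 1.61. Cd74 (chromosome 18, 60803848 to 60812652) was at 417 and 29.6 CPM (14.1 [11.0, 18.3] times), H2-Ab1 at 124 and 22.6 CPM (5.52 [4.10, 7.56] times), H2-Aa at 81.0 and 14.6 CPM (5.55 [3.84, 8.25] times) and H2-Eb1 at 82.4 and 3.98 CPM (20.7 [10.7, 45.8] times). Few members carried them, with a Cd74 UMI in 20 and 17 cells and an H2-Eb1 UMI in 8 and 6, and T cells of the libraries held Cd74 at 542 and 463 CPM. Without its top member in each library Cd74 was at 13.2 times, and without members holding a UMI of another cell type at 7.30 times. Macrophage genes moved the same way: both tested, Lyz2 (65.6 and 9.73 CPM, 6.74 [4.32, 11.0] times) and C1qa (37.8 and 3.98 CPM, 9.50 [4.82, 21.3] times), were called higher in sensitive members, with a median of 8.12. Without each gene's top member they were at 0.801 and 0.458 times. Leaving out the member with the most macrophage marker UMIs in each library, chosen after seeing the data, gave 10.9 times for Cd74, 4.31 for H2-Ab1, 3.50 for H2-Aa and 14.8 for H2-Eb1. Without cells holding 2 pericyte or 2 smooth muscle markers, sensitive members were below other fibroblasts in Cd74 (0.229 times, from 8.69), H2-Aa (0.122 times) and H2-Ab1 (0.542 times). Of 23 interferon response genes 6 were higher and 1 lower, led by Cxcl10 (5.54 [4.34, 7.15] times), with Irf1 (2.48 [1.96, 3.16] times), Gbp2 (2.35 [1.91, 2.90] times) and Igtp (2.18 [1.74, 2.75] times) more evenly spread over 36 to 55 sensitive members. Ifi27l2a was lower at 0.423 [0.388, 0.462] times, as in other fibroblasts (0.412 times).

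Matrix lists held calls in both directions, beside 2.57% higher and 0.662% lower over all tested genes. Of 32 matrix glycoproteins and proteoglycans 3 were higher in sensitive members (Spp1, Has1 and Igfbp5) and 2 lower. Of 9 other collagens 1 was higher (Col7a1) and 1 lower. Of 5 fibrillar collagens 1 was lower, and of 17 collagen maturation genes 1 was higher (Tgm2). Matrix genes higher in resistant members were Col8a1, at 395 and 806 CPM (0.489 [0.454, 0.527] times), with a UMI in 55 and 59 members, Col11a1, a fibrillar collagen (0.337 [0.234, 0.480] times), Tnxb, encoding tenascin X (0.288 [0.226, 0.365] times), and the elastin gene Eln (0.483 [0.394, 0.591] times). For Eln 1 resistant member held 43.9% of the UMIs, and the ratio was 1.18 without members holding a UMI of another cell type. Col11a1 went the other way in other fibroblasts, where it had a ratio of 133 on 1 resistant UMI. Spp1 was higher in sensitive members, at 3.52 [3.39, 3.65] times, and at 17.8 times in other fibroblasts. Among growth factors Wnt5a (2.57 [2.05, 3.24] times) was higher and Wnt2 (0.483 [0.404, 0.576] times) lower in sensitive members. The axon guidance gene Sema3c (0.349 [0.266, 0.456] times) and the peptidase gene Dpp4 (0.454 [0.308, 0.662] times), both adventitial markers, were lower in sensitive members, and Pi16 was 1.94 [1.73, 2.17] times as high by summed CPM. By cell Pi16 went the other way, with medians of 0.361 and 1.10 UMIs per 10000, highest values of 87.3 and 29.7, and a UMI in 38.0% and 48.4% of members at equal depth, so no order is read from it.

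Calls in the other lists stood beside shares of 2.57% higher and 0.662% lower over all tested genes. Of 17 hypoxia and glycolysis genes 2 were higher in sensitive members (Bnip3, 2.23 times, and Ndrg1, 3.04 times), of 20 immediate early genes 2 (Dusp1, 2.11 times, and Atf3, 2.04 times), of 11 senescence genes 2 (Igfbp5, with 67.8% of its UMIs in 1 cell, and Cdkn2a, 2.90 times) and of 11 p53 targets 1 (Fas, 2.05 times). Of 13 cell cycle genes none differed 2-fold, with Mki67 at 0.952 [0.642, 1.42] times. Heat shock, oxidative stress, checkpoint ligand, basement membrane and DOX target lists had no call. Cdkn1a was lower in sensitive members at 0.597 [0.557, 0.640] times, short of 2-fold.

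The whole-tumor libraries held too few fibroblasts for a comparison. The control library had 8 fibroblast gate cells of 488 and 1 member, the sensitive-labelled library none of 269, and the resistant-labelled library 4 of 263 and no member. The labels of the resistant-labelled library disagree, since its source field names a sensitive tumor.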

How the data were processed

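The deposited files held UMI counts per gene and barcode, which the authors made with Cell Ranger (6.0.0 for the T cell libraries, 3.0.1 for the whole-tumor libraries) on mm10, without further normalization. Kept barcodes of the T cell libraries had 500 genes or more and no more than 10% mitochondrial UMIs, and those of the whole-tumor libraries had 200 genes or more. The 2 T cell libraries held 3949 and 6116 barcodes with 31690845 and 35908799 UMIs, and members 2803428 and 2260717 UMIs. The members and all gene lists were chosen with earlier results of these data known.

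UMIs were summed over cells and scaled to CPM. Called means a ratio of at least 2 or at most 0.5 among genes with at least 100 UMIs, in each library for members against other fibroblasts, and without any test because each group had 1 library. Ratios have exact conditional binomial intervals, shares Clopper-Pearson intervals and share ratios delta-method intervals, all at 95% and covering counting error only. Against a count of 0, a floor of 3 counts over the group was used. Genes named were up to 4 called genes of each of 38 lists by level, the 12 highest and 12 lowest ratios between libraries, the 15 highest and 10 lowest against other fibroblasts and the 12 most variable genes (Pearson residuals, dispersion 100), except where said otherwise. Some genes that the rule would name are counted in their lists but not reported here by name. Lists share some genes. No doublet caller was run. Cells with a UMI of 9 markers of other cell types were instead left out as an alternative, and 18 kept barcodes but no member barcode occurred in both libraries. T cells were kept cells outside the fibroblast gate with a Ptprc UMI and one of a Cd3 gene. The calculation was tested on simulated data. Python 3.11.15, numpy 2.4.6, scipy 1.17.1, pandas 2.3.3 and matplotlib 3.10.9 were used. Gene coordinates are GRCm38 (GENCODE vM21).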

Additional observations from a re-analysis of the deposited data

Results flagged for a closer look

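In 19 genes members lay at least 2-fold above other fibroblasts in 1 T cell library and at least 2-fold below them in the other. Of these, 9 are described here. The difference between the libraries was not tested, since each group had 1 library. Mmp13 was at 24.2 times in the sensitive and, with no UMI in members, at most 0.0673 times in the resistant library, and Mmp10 at 6.36 and 0.0642 [0.0131, 0.191] times. The MHC class II gene H2-Eb1 was at 10.3 and 0.453 times, and the chaperone gene Clu at 2.04 and 0.114 times. The macrophage genes C1qc (6.70 and 0.479 times) and Fcer1g (5.50 and 0.463 times) went the same way, beside the single sensitive member that held 88.1% of the macrophage marker UMIs. The phospholipase gene Pla2g7 was at 2.04 and 0.457 times and the collagen gene Col24a1 at 2.13 and, on 2 resistant member UMIs, 0.437 [0.0484, 1.88] times. Csf3, the granulocyte colony stimulating factor gene, went the opposite way, at most 0.103 times in the sensitive library, where members had no UMI, and 4.73 times in the resistant library. Several of these directions turned under an alternative. Against Pi16-negative fibroblasts Mmp10 was at 0.656, Pla2g7 at 0.240 and Clu at 0.362 times in the sensitive library. Without cells holding 2 pericyte or 2 smooth muscle markers Clu was at 0.0669 and Fcer1g at 0.846 times in the sensitive library and Pla2g7 at 1.29 times in the resistant library. Clu was at 0.0254 times in the sensitive library without cells holding a UMI of another cell type, and Pla2g7 at 1.66 times in the resistant library at 5% mitochondrial UMIs.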

How the results depend on the processing

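The ratio of member shares among kept cells, 1.23, was 0.797 with at most 5% mitochondrial UMIs and 0.974 to 1.63 under the other alternatives, while the share of fibroblast gate cells stayed within 0.720 to 1.02. The 171 genes called between libraries became 22 with cells thinned to 5000 UMIs (679 genes tested, 11 in each direction), of which 8 higher and 4 lower were among the 171, 100 without members with 2 pericyte or 2 smooth muscle markers (2148 tested; 21 higher and 13 lower among the 171), 541 with at least 30 UMIs and 64 with at least 300 UMIs. Elsewhere they numbered 124 to 185, and 114 of 136 higher and 29 of 35 lower calls remained without each gene's top member, an alternative chosen after seeing the data, as were leaving out cycling members (114 and 25 remained) and the member with the most macrophage marker UMIs (126 and 31). The 978 genes called against other fibroblasts became 625 with at least 300 UMIs and 199 against Pi16-negative fibroblasts, and 654 to 1382 elsewhere. Of its 360 higher and 618 lower calls, 146 and 364 remained without cells holding 2 pericyte or 2 smooth muscle markers, 138 and 284 after thinning, and 61 and 39 against Pi16-negative cells. No paired analysis was possible because each group had 1 library, and for the same reason no replicate could be left out. Depth limits low genes: one with 100 UMIs in members has a wide counting interval.

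Against Pi16-negative fibroblasts (69 and 12 cells) the direction reversed in the sensitive library for Bnip3 (0.648), Clu (0.362), Col14a1 (1.11), Col7a1 (0.420), Cxcl10 (0.596), Cxcl16 (0.990), Dpp4 (1.65), H2-Ab1 (0.989), Hspa1b (1.20), Igfbp3 (0.525), Igfbp5 (1.94), Il11 (0.451), Inhba (0.730), Krt19 (0.271), Lama2 (1.04), Mmp10 (0.656), Pkm (0.933), Pla2g7 (0.240), Ptgs2 (0.550), Sema3c (1.29), Spp1 (0.879), Tgfbi (0.769), Vegfa (0.686) and Wnt5a (0.624). In the resistant library it reversed for Cdkn2a (0.0771), Cdkn2b (0.999), Col7a1 (0.0966), Cxcl16 (0.693), Cxcl9 (0.469), Des (0.0617), Dpp4 (5.49), Egr2 (0.870), Gapdh (0.764), Grem1 (0.0450), Hspa1a (1.29), Hspa1b (1.54), Ifi27l2a (1.52), Igfbp3 (0.786), Lama2 (1.62), Lama4 (1.18), Mylk (0.343), Pcolce2 (5.58), Pdgfa (0.469), Pgk1 (0.958), Pkm (0.891), Saa3 (2.47), Sema3c (4.27), Spp1 (0.527), Tgfb1 (0.705), Tgfb2 (0.589), Tgfb3 (0.690), Tgfbi (0.232) and Wnt5a (0.283). Pi16 itself reversed (at least 132-fold and at least 10.3-fold higher, against 3 counts) because these cells were chosen to lack it. For the other genes the cause was not tested, and 1 of the 12 resistant cells held 115 Cxcl9 and 414 Spp1 UMIs.

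Without cells holding 2 pericyte or 2 smooth muscle markers, members over other fibroblasts reversed in the sensitive library for Cd74 (0.229), Clu (0.0669), Cxcl10 (0.153), Fcer1g (0.846), H2-Aa (0.122), H2-Ab1 (0.542), Hp (1.04), Ifit3 (0.276), Igfbp3 (0.633) and Timp3 (0.937) and in the resistant library for Pla2g7 (1.29), and sensitive over resistant reversed for Cxcl1 (0.794). Lyz2 (0.225, sensitive) reversed against other fibroblasts likewise. Without each gene's top member, C1qa (0.458) and Lyz2 (0.801) reversed between libraries, as 1 sensitive cell held 96.2% of the UMIs of each. Without the member with the most macrophage marker UMIs, C1qa (0.382) and Lyz2 (0.397) reversed against other fibroblasts in the sensitive library. Without cells holding a UMI of another cell type, Clu (0.0254, sensitive) and Ifit3 (0.949, resistant) reversed against other fibroblasts and Eln (1.18) between libraries. Single reversals in the resistant library were Cxcl5 (1.44) against cells without Acta2 or Tagln, Pla2g7 (1.66) at 5% mitochondrial UMIs and Hspa1b (1.10) after thinning. The cause was not tested. Of the other values of named genes, 5593 stayed within 1.5 times the reported value, and 596 moved further without turning the direction of a call. Counts of calls were treated as unchanged within 1.5 times too.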
